A study of Mus musculus with 15 samples.

Results

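The mRNAs of 5 chemokines (*Ccl3*, *Ccl4*, *Ccl5*, *Ccl9* and *Xcl1*) and of 2 chemokine receptors of inflamed tissue (*Cxcr3* and *Ccr2*) were followed in mouse CD8+ T cells. They were taken by gene symbol from 2 tables of expression values that together list 11836 genes. All 7 have a row in the table of naïve and activated cells (11262 genes), and 6 have one in the table of cytotoxic T lymphocytes (CTL, 11211 genes), where *Ccl9* has no row. The cells carried the LCMV-P14 transgenic T cell receptor (TCR), which recognises the gp33–41 peptide of lymphocytic choriomeningitis virus, and came from female mice. Each replicate of the first table was a pool of lymph node cells of 3 mice that was split into 3 conditions, with 3 replicates of each. Naïve cells were taken ex vivo and sorted as DAPI-, TCRβ+, CD8+, CD62L high and CD44 low. The TCR activated group received gp33–41 at 100 ng/ml for 24 h, together with IL-12 at 2 ng/ml and IL-2 at 20 ng/ml and with DMSO as the vehicle. The PI3Kdi group received the same plus IC87114 at 10 µM, an inhibitor of the phosphoinositide 3-kinase subunit p110δ, and both groups were sorted as DAPI- CD8+ cells. For the second table, P14 cells were activated for 48 h, expanded in 20 ng/ml IL-2, washed, and then kept for 24 h with 20 ng/ml IL-2 or with none (3 replicates of each). The TCR activated and PI3Kdi cultures therefore all began with antigen and cytokine, and no such culture without IL-2 and IL-12 is among the samples. The CTL samples are not part of the published manuscript, whether they were sorted is not stated in the sources used here, and the treatment labels of IL-2 maintained CTL replicates 2 and 3 name other interleukins, so that these were grouped by their titles.

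Chemokines are small secreted proteins that bind to proteoglycans and draw leukocytes along a concentration gradient through receptors coupled to Gi proteins. CCL3, CCL4 and CCL5 are classical products of activated and effector CD8+ T cells, and CCL3 and CCL5 are ligands of CCR1. CCL9 is a CCR1 ligand, and XCL1 (lymphotactin) acts on XCR1 of cross-presenting dendritic cells. CXCR3 binds the interferon-induced chemokines CXCL9, CXCL10 and CXCL11 and guides effector T cells into inflamed tissue, while CCR2 binds CCL2, CCL7 and CCL12 and is best known from monocytes.

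The 4 CC chemokine genes lie together on chromosome 11 of the mm10 build, *Ccl5* (Entrez 20304) at chr11:83525778-83530518, *Ccl9* (20308) at chr11:83572919-83578636, *Ccl3* (20302) at chr11:83647844-83649355 and *Ccl4* (20303) at chr11:83662584-83664683, as annotated in GENCODE vM21. *Xcl1* (16963) lies at chr1:164931644-164935527, *Cxcr3* (12766) at chrX:101731535-101734269 and *Ccr2* (12772) at chr9:124101950-124113557. The RefSeq table places *Ccl4* from base 83648624, which reaches into *Ccl3* on the other strand, and *Xcl1* overlaps the transcript Gm20743 on the other strand. The libraries were made with a stranded kit, but whether strand was used in counting is not stated in the sources used here, so reads from such overlaps cannot be assigned with certainty.

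The 250 bases before the RefSeq start were read for 4 genes from the RefSeq promoter table (GRCm38.p6, the assembly called mm10). These are *Ccl3*, *Xcl1* and *Ccl9*, which rose with TCR activation and were lower with PI3Kdi, and *Cxcr3*, which went the other way. Capitals mark matches, on either strand, to the letters GGAAAA (NFAT), TGANTCA (AP-1), TGACGTC (CRE), GGTGTGA (T-box), TGTTTAC (FOXO), CACACCC (KLF) or TTCNNNGAA (STAT), or to the NF-kB consensus, and no marked stretches overlap.
Ccl3, chr11:83649379-83649628, minus strand: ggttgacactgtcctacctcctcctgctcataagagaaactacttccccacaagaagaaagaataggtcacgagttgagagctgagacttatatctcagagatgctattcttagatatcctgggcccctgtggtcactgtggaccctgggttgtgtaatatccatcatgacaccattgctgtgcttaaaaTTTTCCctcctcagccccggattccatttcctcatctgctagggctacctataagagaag
Xcl1, chr1:164935523-164935772, minus strand: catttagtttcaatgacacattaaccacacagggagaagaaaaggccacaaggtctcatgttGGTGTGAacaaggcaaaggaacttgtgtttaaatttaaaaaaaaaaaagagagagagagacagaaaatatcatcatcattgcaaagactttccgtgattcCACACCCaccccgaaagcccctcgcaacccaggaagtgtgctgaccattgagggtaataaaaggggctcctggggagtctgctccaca
Ccl9, chr11:83578637-83578886, minus strand: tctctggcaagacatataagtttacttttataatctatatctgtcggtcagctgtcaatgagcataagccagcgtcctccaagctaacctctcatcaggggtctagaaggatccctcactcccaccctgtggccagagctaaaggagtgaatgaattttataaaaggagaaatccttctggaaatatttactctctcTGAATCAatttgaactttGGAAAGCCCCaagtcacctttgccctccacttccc
Cxcr3, chrX:101734148-101734397, minus strand: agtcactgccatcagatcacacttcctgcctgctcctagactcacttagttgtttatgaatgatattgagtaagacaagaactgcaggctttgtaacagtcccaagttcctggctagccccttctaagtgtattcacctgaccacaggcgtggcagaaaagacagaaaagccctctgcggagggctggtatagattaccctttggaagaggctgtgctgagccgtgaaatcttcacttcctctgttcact
*Ccl3* held the NFAT letters from base -60 to -55, on the strand opposite to the gene. *Ccl9* held the AP-1 letters from base -53 to -47 and an NF-kB consensus from -35 to -26, and *Xcl1* held the T-box letters from -188 to -182 and the KLF letters from -88 to -82. None of these motifs occurred in the *Cxcr3* window. That window precedes the RefSeq start at base 101734147, but GENCODE places the start at base 101734269. The window therefore lies partly inside the GENCODE gene, and the sequence before the GENCODE start was read only in part. The window listed for *Ccr2* (chr9:124101933-124102182, plus strand) held the NFAT letters. It lies downstream of the RefSeq gene start at base 124101918, so it is not the sequence before that start and is not set against the others. Among 32851 promoters of the same length, 20.4% held the NFAT letters, 1.41% the NF-kB consensus, 6.75% the AP-1 letters, 3.33% the T-box letters and 6.93% the KLF letters, so that single matches of the shorter motifs are common and are given as a description of sequence.

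Values are FPKM as deposited, that is, fragments per kilobase of exon scaled to the size of the library, and a gene was called higher or lower when the limma test on log2(FPKM + 0.1) gave a Benjamini-Hochberg adjusted p under 0.05 over all genes of the table together with more than a 2-fold difference. Replicates of a group correlated with each other at r from 0.983 to 0.995 across genes on that scale. The study's methods take 3 CTL replicates from 3 mice, and whether this covers the CTL samples outside the manuscript is not stated, so p-values there measure the spread between these samples. The tables give no read totals. From the spacing of the lowest values, depth was estimated at about 10500000 to 14750000 counted reads a library in the first table and 9250000 to 12250000 in the second, at which 1 read of *Ccl3* amounts to about 0.10 FPKM. All 10 CD8 T cell markers had a row in both tables, and their summed level was 5367 to 5842 FPKM in naïve, 1475 to 1835 in TCR activated, 1610 to 1867 in PI3Kdi, 2663 to 3041 in IL-2 maintained CTL and 3566 to 3771 in CTL without IL-2. The groups of the first table were sorted as CD8+ cells, whereas for CTL sorting is not stated. In bulk RNA, fewer cells of a type and less RNA per cell cannot be told apart.

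**Figure D1:**
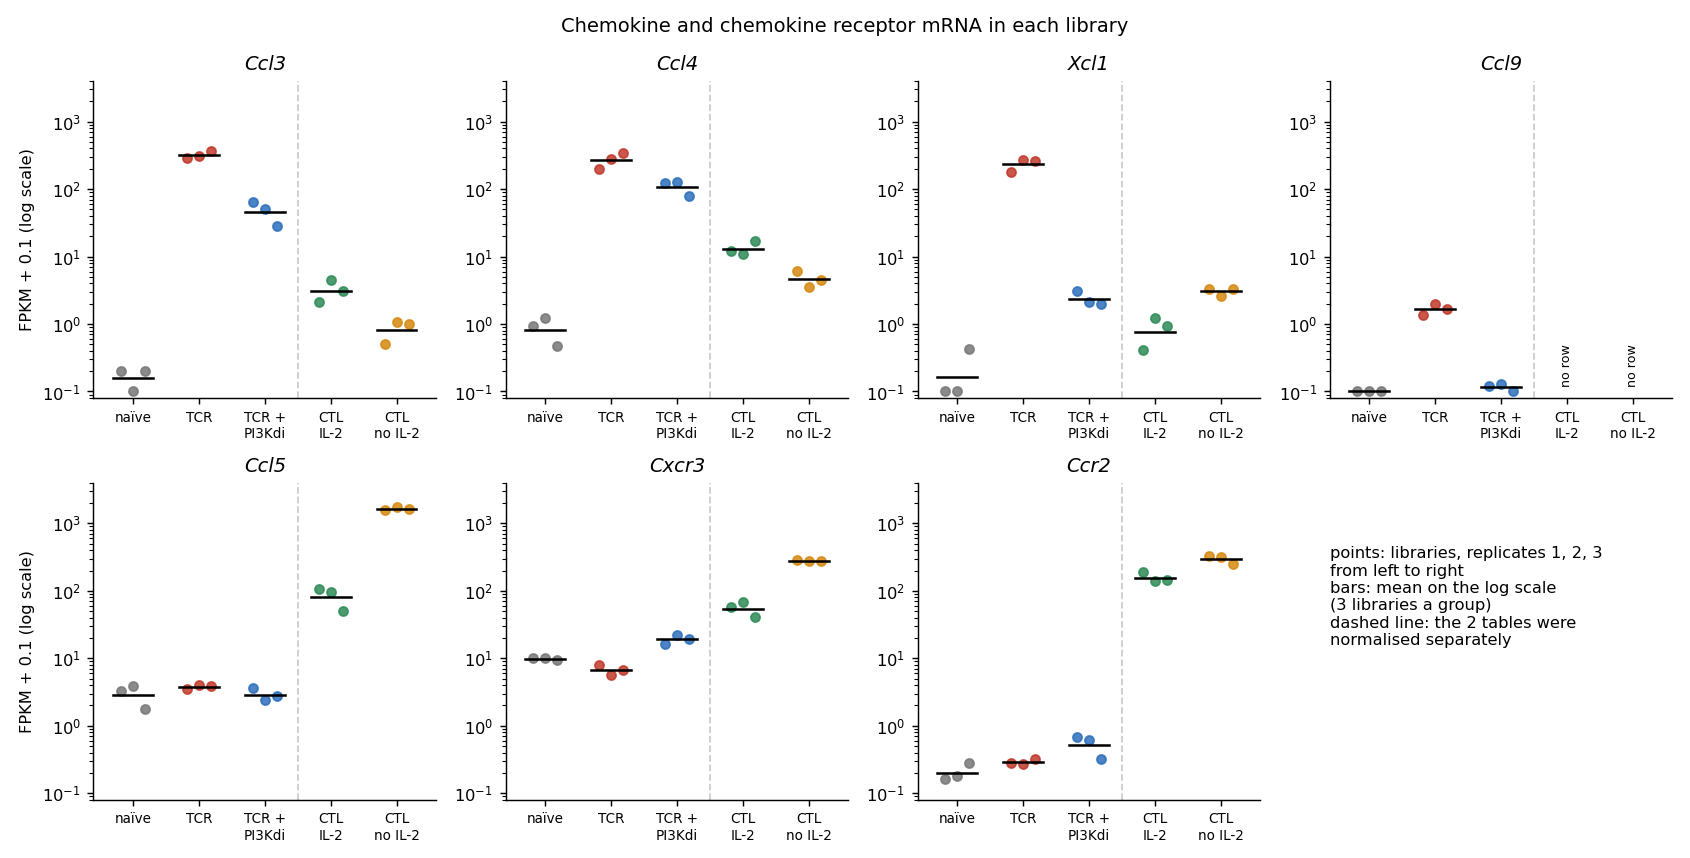
FPKM + 0.1 on a log axis for each of the 7 mRNAs in the 15 libraries, by group (points, 3 libraries a group; bars, mean on the log scale). *Ccl3*, *Ccl4* and *Xcl1* stand at 178 to 371 FPKM in TCR activated cells and at 127 FPKM or less elsewhere, whereas *Ccl5* and *Ccr2* stand above 40 FPKM in CTL and below 5 FPKM in the other groups.

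TCR activation of naïve cells raised 4 of the 5 chemokine mRNAs and neither receptor mRNA. *Ccl3* was listed at 0.10, 0 and 0.10 FPKM in naïve replicates 1, 2 and 3, which is about 1 read or none, and at 293, 312 and 371 FPKM after activation. The groups were far apart, with a log2 difference of 10.99 ± 0.31 (SE, limma, n = 3 per group, adjusted p = 1.2e-10) that ran from 8.25 to 12.68 with other pseudocounts and settings because the naïve values lie near 0. *Ccl4* stood at 0.82, 1.13 and 0.37 FPKM in naïve and at 198, 275 and 345 FPKM in activated replicates, a log2 difference of 8.36 ± 0.32 (limma adjusted p = 9.7e-10). *Xcl1* was listed at 0, 0 and 0.33 FPKM in naïve and at 178, 267 and 265 FPKM in activated cells (log2 difference 10.48 ± 0.47, limma adjusted p = 3.3e-09, from 7.73 to 12.81 over the other settings). By mean level, *Ccl3*, *Ccl4* and *Xcl1* moved from ranks 10827, 9876 and 10718 among the 11262 genes to ranks 194, 246 and 283.

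*Ccl9* was listed at 0 in all 3 naïve libraries, where genes used by every cell such as *Actb* and *Tbp* were well above 0, and at 1.28, 1.87 and 1.59 FPKM after activation. It passed the test (limma adjusted p = 2.7e-08), and no fold is given against a group at 0. Its activated level of 1.58 ± 0.30 FPKM lay far below the 326 ± 41 FPKM of *Ccl3* (mean ± SD, n = 3).

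*Ccl5* did not pass the test. Its values were 3.19, 3.80 and 1.69 FPKM in naïve and 3.43, 3.87 and 3.84 FPKM in activated cells, and the groups overlapped (log2 difference 0.42, 95% interval -0.16 to 1.00, limma adjusted p = 0.16). Of the receptors, *Cxcr3* stood at 9.92, 10.1 and 9.29 FPKM in naïve and 7.81, 5.59 and 6.62 FPKM in activated replicates. All activated values were lower, and the difference passed the p threshold but not the fold limit (log2 difference -0.56 ± 0.14, limma adjusted p = 0.0039). *Ccr2* was near the bottom of the table in both groups, at 0.06, 0.08 and 0.18 FPKM and at 0.18, 0.17 and 0.22 FPKM (log2 difference 0.53, 95% interval -0.20 to 1.26, limma adjusted p = 0.16). In this comparison 48.7% of all genes were called (25.0% higher and 23.7% lower) and the groups did not overlap for 80.7%, so that the count of 4 called members of 7 is no result in itself. Their median log2 difference was 4.06, the pseudocount-dependent value of *Ccl9*, against 0.01 over all genes, and *Ccl3*, *Xcl1* and *Ccl4* were the 3rd, 5th and 17th of all genes by log2(FPKM + 0.1) difference.

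The p110δ inhibitor lowered the 4 TCR induced chemokine mRNAs to very different degrees and raised *Cxcr3*. These comparisons share the TCR activated libraries with the one before. *Xcl1* fell from the 178 to 267 FPKM given above to 3.04, 2.01 and 1.86 FPKM in PI3Kdi replicates 1, 2 and 3, a log2 difference of -6.63 ± 0.47 (95% interval -7.67 to -5.59, limma adjusted p = 1.1e-05). Within the same pools of mice the level was 58.6-fold, 133-fold and 143-fold lower. *Ccl3* stood at 64.7, 50.6 and 28.6 FPKM with the inhibitor, which was 4.53-fold, 6.18-fold and 12.99-fold below the activated cells of the same pool (log2 difference -2.83 ± 0.31, 95% interval -3.51 to -2.15, limma adjusted p = 0.00016). *Ccl4* stood at 122.5, 126.6 and 80.0 FPKM, or 1.62-fold, 2.17-fold and 4.31-fold lower (log2 difference -1.31 ± 0.32, 95% interval -2.01 to -0.60, limma adjusted p = 0.018).

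All 3 PI3Kdi values lay below all 3 TCR values for each of *Xcl1*, *Ccl3* and *Ccl4*, and the intervals of their log2 differences did not meet. The call of *Ccl4* was the least stable, since it was lost without replicate 2 (adjusted p = 0.095) and without replicate 3, where the log2 difference was -0.91. *Ccl9* was listed at 0.02, 0.03 and 0 FPKM with the inhibitor, about 1 read or none, and was called lower (limma adjusted p = 4.6e-06). Its log2 difference depends on the pseudocount and ran from -6.10 to -1.34. *Ccl5* again overlapped, at 3.56, 2.34 and 2.64 FPKM (log2 difference -0.39, 95% interval -0.97 to 0.19, limma adjusted p = 0.35).

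*Cxcr3* was the receptor that rose, to 16.3, 22.2 and 19.3 FPKM. Every inhibitor treated library was higher than every TCR library, by 2.09-fold, 3.98-fold and 2.92-fold within pools (log2 difference 1.52 ± 0.14, 95% interval 1.20 to 1.84, limma adjusted p = 6.1e-05). *Ccr2* stood at 0.59, 0.52 and 0.22 FPKM, and replicate 3 equalled its TCR partner (log2 difference 0.83, 95% interval 0.10 to 1.56, limma adjusted p = 0.11). Without replicate 3 *Ccr2* was called higher (log2 difference 1.25). Of the 7 members 5 were called, 1 higher and 4 lower, where 5.14% of all genes were called (3.04% higher and 2.10% lower) and the groups did not overlap for 36.7%. The members' median log2 difference was -1.31, against -0.01 over all genes. The members were chosen with earlier results of these data known. This count and median, like those of the other comparisons, are therefore no result in themselves.

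**Figure D2:**
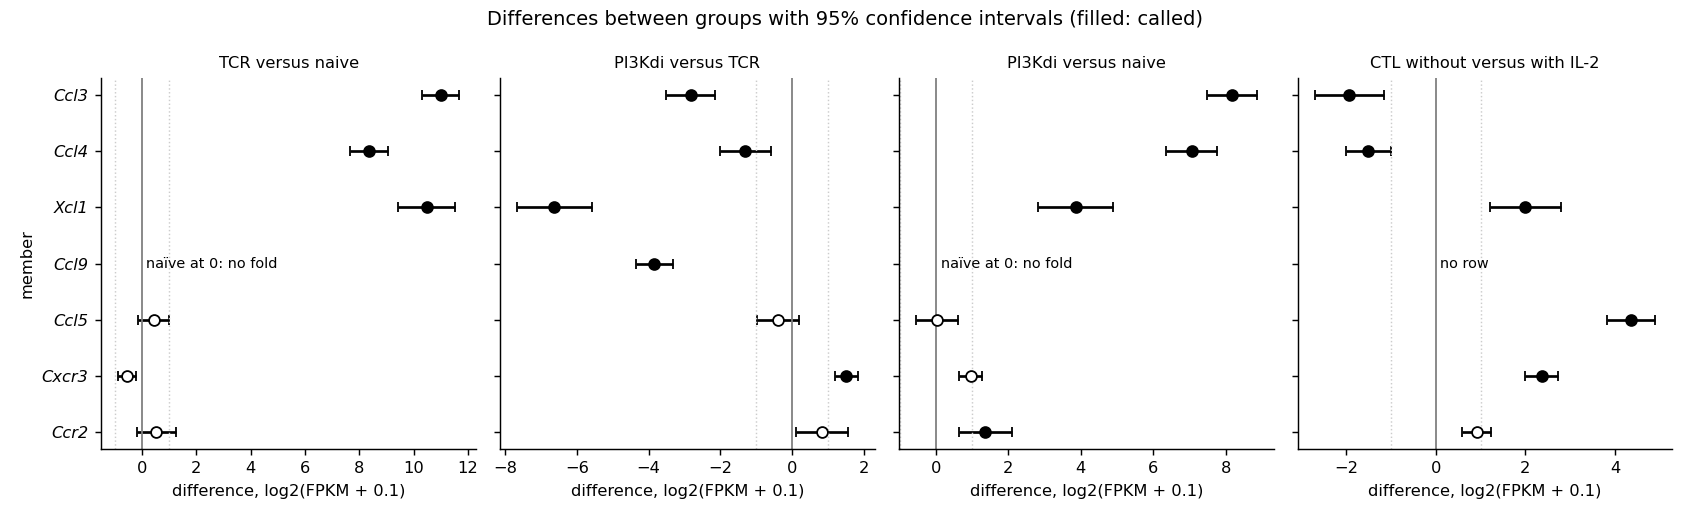
Differences in log2(FPKM + 0.1) for each mRNA in the 4 comparisons, with 95% confidence intervals from limma (3 libraries a group); filled points were called and dotted lines mark 2-fold. The inhibitor column runs from -6.63 for *Xcl1* to 1.52 for *Cxcr3*, and *Ccl9* is drawn without a value where naïve libraries were at 0.

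Set against naïve cells, activation under the inhibitor still raised *Ccl3*, *Ccl4* and *Xcl1*. The naïve libraries are shared with the first comparison. The log2 differences were 8.16 ± 0.31 for *Ccl3* (limma adjusted p = 1.3e-09), 7.05 ± 0.32 for *Ccl4* (5.0e-09) and 3.85 ± 0.47 for *Xcl1* (1.6e-05), the last of which ran from 1.57 to 6.12 over the other settings. Expressed as a share of the mean FPKM gained with TCR activation, 40.1% of the *Ccl4* gain was present with PI3Kdi, with 61.8%, 45.8% and 23.1% in replicates 1, 2 and 3. The share was 14.7% for *Ccl3* (7.68% to 22.1% over replicates), 0.93% for *Xcl1* (0.58% to 1.71%) and 1.05% for *Ccl9* (0% to 1.60%). The order *Ccl4* above *Ccl3* above *Xcl1* held within each of the 3 replicates.

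*Cxcr3* was higher with the inhibitor than in naïve cells in every library, and its log2 difference of 0.96 ± 0.14 (limma adjusted p = 8.2e-05) lay just under the 2-fold limit. Its level therefore ran from TCR activated over naïve to PI3Kdi cells, with no overlap between neighbours. *Ccr2* was called higher than in naïve cells (log2 difference 1.36 ± 0.33, limma adjusted p = 0.0027) at levels of 0.59 FPKM and below. That call was lost without replicate 1 (adjusted p = 0.060), without replicate 2 (adjusted p = 0.060) and with a pseudocount of 1, where the log2 difference was 0.38. *Ccl5* and *Ccl9* did not pass (limma adjusted p = 0.92 and 0.42). Of the 7 members 4 were called, each of them higher, where 45.0% of all genes were called (23.6% higher and 21.3% lower) and the groups did not overlap for 82.9%. The median log2 difference was 1.36, against 0.00 over all genes.

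The composition of the chemokine mRNA differed between groups along with its amount. The FPKM of the listed member chemokines summed to 2.49 to 4.93 in naïve, 674 to 986 in TCR activated and 113 to 194 in PI3Kdi libraries. In TCR activated libraries *Ccl3* made up 36.3% to 43.5% of that sum, *Ccl4* 29.4% to 34.9% and *Xcl1* 26.5% to 31.0%. With PI3Kdi, *Ccl4* made up 63.2% to 70.7%, *Ccl3* 25.3% to 33.4% and *Xcl1* 1.11% to 1.65%. The ratio of *Ccl3* to *Ccl4*, neighbouring genes, was 1.48, 1.13 and 1.08 in TCR activated replicates and 0.53, 0.40 and 0.36 with the inhibitor. The groups did not overlap, and the exact two-sided permutation test gave p = 0.1, the smallest that 3 against 3 libraries allow.

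**Figure D3:**
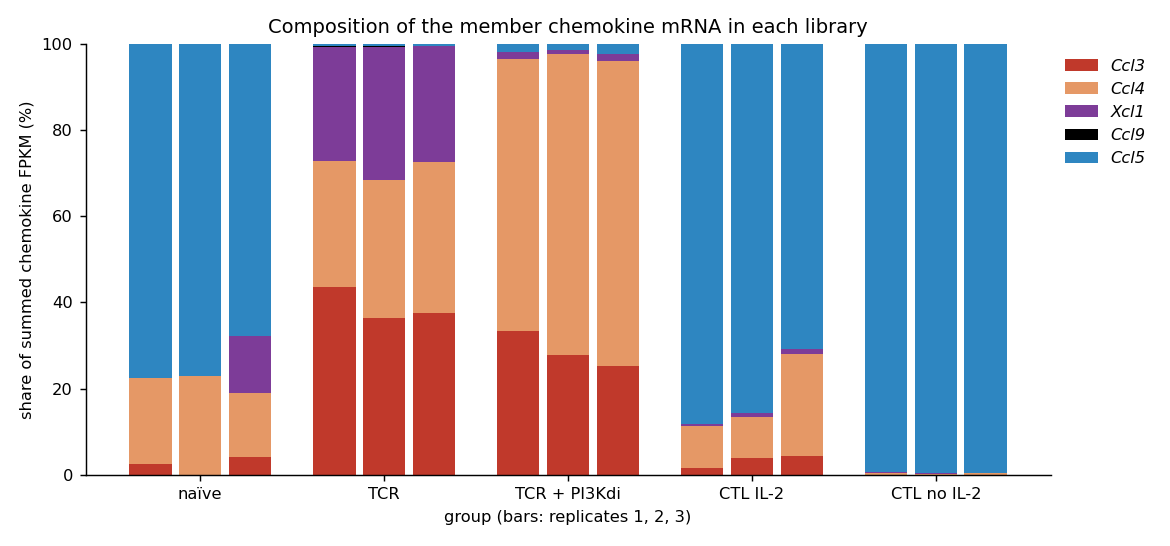
Share of each member chemokine in the summed FPKM of the member chemokines, in percent, with 1 stacked bar per library. *Xcl1* takes 26.5% to 31.0% in TCR activated libraries and 1.11% to 1.65% with PI3Kdi, and *Ccl5* takes over 99% in CTL without IL-2.

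In CTL, removal of IL-2 for 24 h moved the chemokine mRNAs in opposite directions. *Ccl5* stood at 106, 97.6 and 49.9 FPKM with IL-2 and at 1586, 1724 and 1654 FPKM without it. All deprived libraries were higher, by a log2 difference of 4.36 ± 0.24 (95% interval 3.83 to 4.90, limma, n = 3 per group, adjusted p = 5.7e-07), and the mean level moved from rank 1000 to rank 32 of the 11211 genes. *Xcl1* rose from 0.31, 1.11 and 0.82 FPKM to 3.25, 2.51 and 3.25 FPKM (log2 difference 2.00 ± 0.35, limma adjusted p = 0.00066), with the lowest of these values near 2 reads. Its log2 difference ran from 1.22 with a pseudocount of 1 to 2.45 without replicate 2 and was called throughout.

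*Ccl3* and *Ccl4* fell. *Ccl3* went from 1.99, 4.47 and 3.01 FPKM with IL-2 to 0.41, 0.96 and 0.90 FPKM without (log2 difference -1.93 ± 0.34, limma adjusted p = 0.00071, and -1.21 with a pseudocount of 1). *Ccl4* went from 11.8, 10.7 and 16.8 FPKM to 6.06, 3.43 and 4.32 FPKM (log2 difference -1.50 ± 0.22, limma adjusted p = 0.00021). The deprived libraries were all lower for both mRNAs. The *Ccl3* to *Ccl4* ratio was 0.17, 0.42 and 0.18 with IL-2 and 0.068, 0.28 and 0.21 without, and these overlapped (exact two-sided permutation p = 0.6).

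Both receptor mRNAs were higher without IL-2. *Cxcr3* stood at 57.7, 68.3 and 40.4 FPKM with IL-2 and at 282, 278 and 276 FPKM without, a log2 difference of 2.36 ± 0.16 (95% interval 2.00 to 2.72, limma adjusted p = 1.7e-06). *Ccr2* stood at 192, 140 and 144 FPKM with IL-2 and at 328, 320 and 248 FPKM without. Its groups did not overlap, and its log2 difference of 0.92 ± 0.14 (limma adjusted p = 0.00033) remained under the 2-fold limit. Of 6 members 5 were called, 3 higher and 2 lower, where 28.2% of all genes were called (14.3% higher and 13.9% lower) and the groups did not overlap for 76.1%. The median log2 difference was 1.46, against 0.00 over all genes. *Ccl5* made up 70.8% to 88.3% of the summed chemokine FPKM with IL-2 and 99.4% to 99.6% without, and the sums were 70.5 to 121 FPKM and 1596 to 1731 FPKM.

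The order of levels over the 5 groups is given for 6 of the mRNAs side by side, without a test across the separately normalised tables. *Ccl3* ran from TCR activated (mean 326 FPKM) over PI3Kdi (48.0) and IL-2 maintained CTL (3.16) to deprived CTL (0.76) and naïve cells (0.067), and no neighbours in that order overlapped. *Ccl4* had the same order, from 273 over 110, 13.1 and 4.6 to 0.77 FPKM, again with no overlap between neighbours. *Xcl1* stood at 237 FPKM in TCR activated cells, followed by deprived CTL (3.00), PI3Kdi cells (2.30), IL-2 maintained CTL (0.75) and naïve cells (0.11). In that series deprived CTL overlapped with PI3Kdi cells, and IL-2 maintained CTL with naïve cells. *Ccl5* was led by deprived CTL (1655 FPKM) and IL-2 maintained CTL (84.6), with the other 3 groups between 2.85 and 3.71 FPKM and overlapping. *Cxcr3* followed with 279, 55.5, 19.3, 9.78 and 6.67 FPKM in deprived CTL, IL-2 maintained CTL, PI3Kdi, naïve and TCR activated cells, all without overlap. *Ccr2* stood at 299 and 159 FPKM in the CTL groups and at 0.44, 0.19 and 0.11 FPKM in PI3Kdi, TCR activated and naïve cells, the last 3 overlapping with their neighbours.

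Few other chemokine genes were listed. Of 36 further chemokines, 3 had a row in each table, and the CXCR3 ligands *Cxcl9* and *Cxcl11* and the CCR2 ligands *Ccl2*, *Ccl7*, *Ccl8* and *Ccl12* had none. *Cxcl10*, a CXCR3 ligand, was called higher with TCR activation, lower with the inhibitor and higher with inhibitor than in naïve cells. Its levels were 0.22 to 0.49 FPKM in naïve, 3.89 to 17.7 in TCR activated and 0.66 to 5.31 in PI3Kdi libraries, so that the activated groups overlapped (log2 difference -2.19 ± 0.68, limma adjusted p = 0.048). *Ccl22*, a ligand of CCR4, followed the same order at 0.04 to 0.05, 2.30 to 8.06 and 0.43 to 1.37 FPKM, and the fall with PI3Kdi was called (log2 difference -2.26 ± 0.44, limma adjusted p = 0.0057). In CTL without IL-2, *Cxcl10* was lower (0.22 to 0.38 against 1.10 to 1.43 FPKM, log2 difference -1.86 ± 0.23) and *Ccl6* was higher (0.99 to 2.22 against 0.40 to 0.65 FPKM, log2 difference 1.51 ± 0.30).

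**Figure D4:**
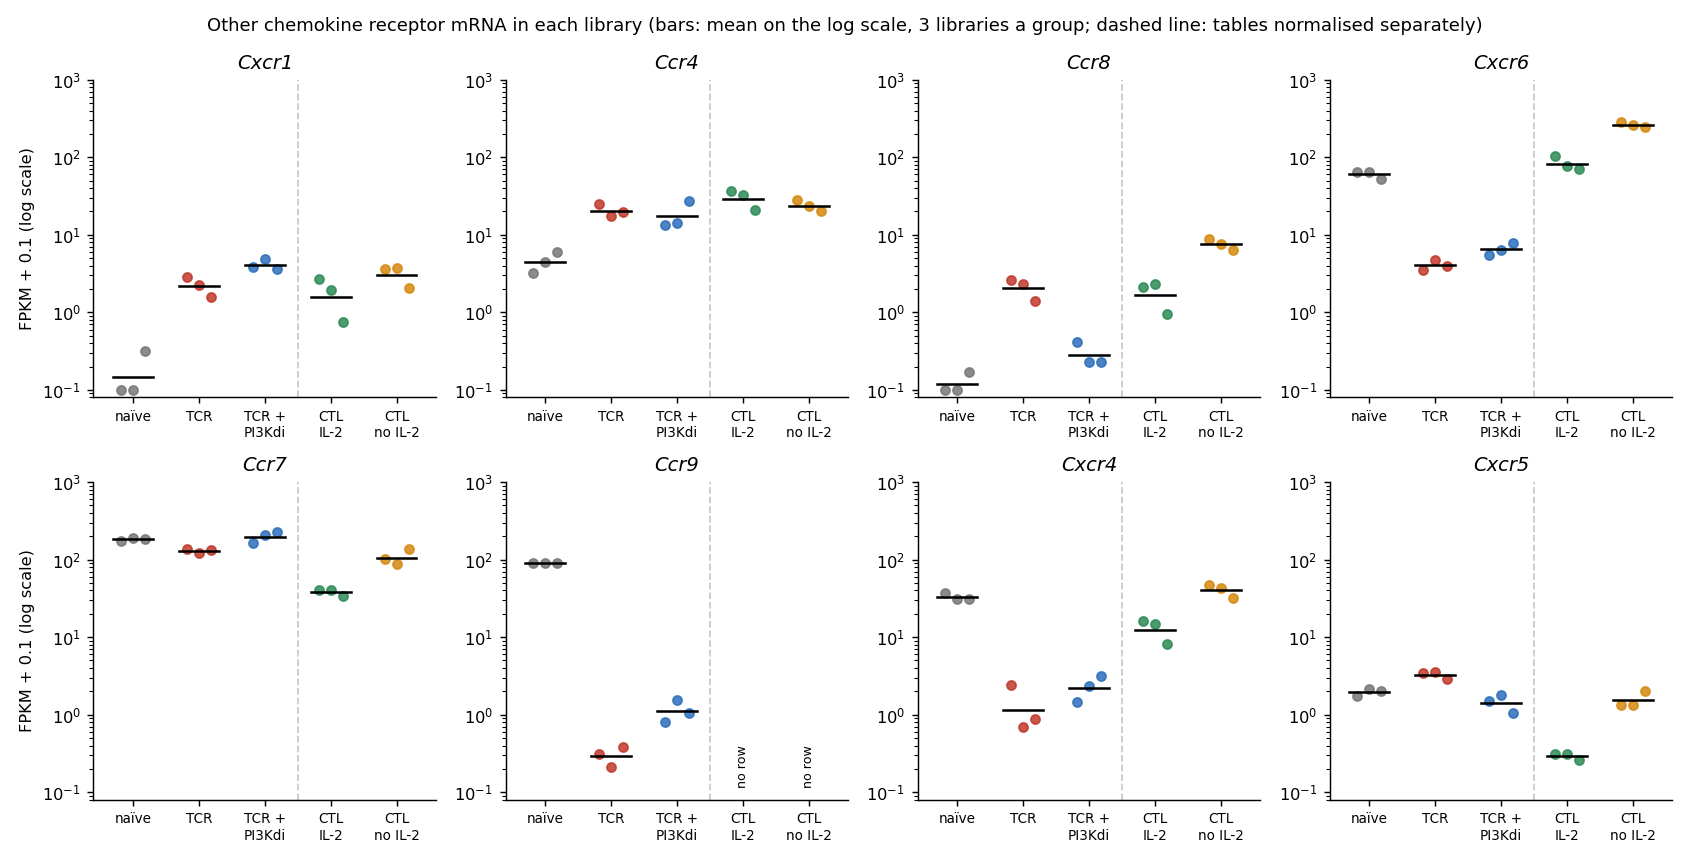
FPKM + 0.1 on a log axis for 8 other chemokine receptor mRNAs in each library, by group (points, 3 libraries a group; bars, mean on the log scale). *Cxcr1* stands at 0 to 0.22 FPKM in naïve and at 1.5 to 4.77 FPKM in activated libraries, while *Ccr9*, *Cxcr4* and *Cxcr6* are lower after activation than in naïve cells.

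Of 22 other chemokine receptors, 10 had a row in the first table, and TCR activation raised 5 of them and lowered 3 (median log2 difference 1.47), where 25.0% of all genes were called higher and 23.7% lower. *Cxcr1*, a receptor best known from neutrophils, was at 0 to 0.22 FPKM in naïve cells and at 1.5 to 2.75 FPKM after activation (limma adjusted p = 3.9e-06). *Ccr8*, a receptor of CCL1, and *Ccr4*, a skin-homing receptor, rose, with means of 2.01 and 20.5 FPKM after activation. The gut-homing receptor *Ccr9* (from 89.4 to 0.20 FPKM in the mean), the CXCL12 receptor *Cxcr4* (33.2 to 1.23) and *Cxcr6* (60.3 to 3.96) fell. *Ccr1* and *Xcr1* had no row in this table.

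With the inhibitor, 1 of these 10 receptor mRNAs was called higher than with TCR alone and 2 were called lower, with a median log2 difference of 0.64, where 3.04% of all genes were called higher and 2.10% lower. *Ccr9* was higher (0.71 to 1.45 against 0.11 to 0.28 FPKM, log2 difference 1.92 ± 0.25), *Ccr8* was lower (0.13 to 0.31 against 1.30 to 2.49 FPKM, -2.87 ± 0.34) and *Cxcr5*, which guides lymphocytes to B cell follicles, was lower (0.95 to 1.72 against 2.78 to 3.46 FPKM, -1.21 ± 0.21). With the pool of mice as a block, *Cxcr2* was called higher as well (adjusted p = 0.036, log2 difference 1.35). In PI3Kdi against naïve cells, 5 were called higher and 3 lower.

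In CTL, 13 receptors had a row, and 8 were called higher without IL-2 and none lower by limma (median log2 difference 1.48), where 14.3% of all genes were called higher and 13.9% lower. At an unadjusted p under 0.05, which 74.0% of all genes met, 8 were higher and 1 was lower. *Cxcr6* rose from 69.6 to 103 FPKM to 248 to 283 FPKM (log2 difference 1.67 ± 0.13), *Cxcr4* from 8.10 to 16.0 to 31.9 to 47.5 FPKM (1.69 ± 0.24) and *Ccr8* from 0.85 to 2.25 to 6.35 to 8.82 FPKM (2.17 ± 0.31). *Cxcr5* rose too, from a mean of 0.19 to 1.46 FPKM (2.39 ± 0.24). *Ccr1*, a receptor of CCL3 and CCL5, stood at 1.83 to 3.58 FPKM with IL-2 and at 6.30 to 9.94 FPKM without.

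Downstream of the receptors, 37 of 39 listed genes for G protein signalling, adhesion and migration had a row in the first table. Of these, 4 were called higher and 21 lower with TCR activation, with a median log2 difference of -1.13 over the list, against 25.0% higher and 23.7% lower over all genes. *Rgs16* and *Rgs1*, which shorten G protein signals, rose from 0.03 and 3.37 to 23.4 and 131 FPKM in the mean. *Rasgrp2*, an activator of the integrin switch RAP1, fell from 161 to 4.39 FPKM, and the integrin gene *Itga4* fell from 42.6 to 3.58 FPKM. With the inhibitor, where 5.14% of all genes were called, 1 was higher (*Gng2*, a G protein subunit, 25.6 against 9.91 FPKM, log2 difference 1.35 ± 0.13) and 1 was lower (*Rgs16*, 7.42 against 23.4 FPKM, -1.72 ± 0.28). In CTL without IL-2, 4 of 38 were higher and 2 lower, against 14.3% and 13.9% of all genes. *Itga4* rose from 11.1 to 130 FPKM (log2 difference 3.62 ± 0.26) and *Rgs10* from 11.5 to 97.7 FPKM (3.08 ± 0.14), while *Rgs18* fell from 6.05 to 0.52 FPKM and *Rgs16* from 12.7 to 6.02 FPKM.

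Of 10 genes for the storage and modification of secreted chemokines and their receptors, 2 were higher and 3 lower with TCR activation, against 25.0% and 23.7% of all genes. *Furin*, a protease of the secretory pathway, rose from 18.9 to 302 FPKM, and *Dpp4*, a surface peptidase that trims several chemokines, fell from 38.4 to 4.22 FPKM. None of the 10 was called with the inhibitor by limma, and at an unadjusted p under 0.05, which 31.5% of all genes met, 2 were higher and 1 was lower. In CTL without IL-2, *Dpp4* rose from 24.2 to 59.6 FPKM (log2 difference 1.29 ± 0.12), *Xylt1*, which starts proteoglycan chains, from 1.35 to 2.82 FPKM, and *Tpst1*, a tyrosine sulfotransferase, fell from 14.7 to 4.61 FPKM (-1.66 ± 0.15).

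Of 35 transcription factors known at chemokine or effector genes, TCR activation raised 15 and lowered 8, and the inhibitor raised 1 and lowered 8 relative to TCR alone, with list medians of 0.10 and -0.18 on the log2 scale. Over all genes 25.0% were called higher and 23.7% lower with TCR activation, and 3.04% higher and 2.10% lower with the inhibitor. The gene that rose was *Klf2*, a quiescence factor, at 9.33 to 19.5 FPKM against 0.38 to 1.46 (log2 difference 4.28 ± 0.40). It stayed below its naïve level of 193 to 261 FPKM. Relative to TCR alone, *Zeb2* (0.13 to 0.19 against 1.31 to 1.86 FPKM), *Bhlhe40* (22.7 to 31.9 against 92.3 to 132), the T-box factor *Eomes* (4.03 to 8.24 against 12.4 to 23.8) and the NF-kB subunit *Nfkb1* (79.7 to 115 against 230 to 270) were lower. In CTL without IL-2, 5 of 34 were higher and 9 lower, against 14.3% and 13.9% of all genes. *Klf13*, described as a regulator of *Ccl5* in T cells, rose from a mean of 33.8 to 107 FPKM (log2 difference 1.66 ± 0.09), *Klf2* from 2.43 to 35.4 FPKM and *Stat4* from 38.2 to 122 FPKM. In naïve, TCR activated and PI3Kdi cells *Klf13* had means of 87.1, 13.8 and 23.6 FPKM, and *Ccl5* was not called between these groups. A link between *Klf13* and *Ccl5* was not tested. *Irf8* fell from 114 to 9.57 FPKM and *Eomes* from 114 to 14.0 FPKM.

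Few markers of other cells had a row, and several moved with the groups. Of 8 B cell markers, 5 had a row in the first table, and their summed level was 21.2 to 27.7 FPKM in naïve, 4.89 to 7.68 in TCR activated and 3.39 to 4.65 in PI3Kdi libraries, with *Fcer2a* and *Ms4a1* among those called lower in PI3Kdi against TCR. Of 12 macrophage and monocyte markers, 2 had a row (*Itgam* and *Cd68*), with sums of 2.71 to 2.98, 1.85 to 4.97 and 3.56 to 4.57 FPKM in the same order. *Itgam* was called lower in both activated groups than in naïve cells. Of 8 dendritic cell markers, 2 had a row (*Zbtb46* and *Batf3*), and their sum moved with *Ccl3*, *Ccl4* and *Xcl1*, at 0.05 to 0.10 FPKM in naïve, 56.1 to 89.6 in TCR activated and 13.3 to 22.8 in PI3Kdi libraries. Both were called higher in TCR against naïve and lower in PI3Kdi against TCR. *Batf3* made up nearly all of the sum in the activated groups, so that the sum follows *Batf3* and is no measure of dendritic cells. Of 4 CD4 T cell markers, 3 had a row (*Zbtb7b*, *Foxp3* and *Ctla4*), with sums of 0.18 to 0.87, 45.9 to 213 and 85.4 to 150 FPKM. *Ctla4* and *Zbtb7b* were called higher in both activated groups than in naïve cells, and none of the 3 was called between TCR and PI3Kdi. *Ctla4* alone stood at 45.2 to 212 FPKM in TCR activated and 83.9 to 149 FPKM in PI3Kdi libraries, and *Cd4* had no row. This sum therefore follows *Ctla4* and is no measure of CD4 T cells. Of the 6 NK cell markers, 1 had a row (*Gzma*, 3.07 to 4.85, 1.25 to 3.67 and 1.42 to 1.90 FPKM), and it was called lower in both activated groups than in naïve cells. In CTL without IL-2, *Itgam*, *Itgax*, *Cd79b*, *Cd4* and *Ctla4* were called higher and the NK cell markers *Fcer1g* and *Gzma* lower, in lists of which 1 to 4 genes had a row. The summed macrophage and monocyte markers stood at 5.36 to 9.34 FPKM with IL-2 and 9.99 to 16.9 FPKM without, those of dendritic cells at 22.7 to 36.6 and 29.1 to 42.3, the B cell marker at 2.74 to 6.30 and 10.8 to 20.6, those of CD4 T cells at 35.4 to 46.0 and 151 to 167, and those of NK cells, which include the granzyme that CTL make too, at 4626 to 5269 and 1820 to 1906 FPKM. Within the CD4 T cell sum of CTL, *Ctla4* stood at 18.6 to 29.0 FPKM with IL-2 and at 122 to 142 FPKM without. No neutrophil or erythroid marker had a row in either table. The part of other cells in the chemokine and receptor values was not tested.

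The genes whose pattern lay closest to each member were found from the root mean square difference of log2(FPKM + 0.1), centred on each gene's mean within each table, over 15 libraries and 10397 genes (over 9 libraries and 10502 genes for *Ccl9*). Libraries of a group share their treatment, so this is a description. Closest to *Ccl3* were the zinc finger factor gene *Zbtb32* (difference 0.69), *Ube2c* (0.91) and *Batf3* (0.98), where the median over all genes was 3.70, and *Ccl4* ranked at place 8 (1.06). In the ranking for *Ccl4*, *Ccl3* was only at place 112 with the same difference. Closest to *Ccl4* were the cell division genes *Cdk1* (0.42), *Bub1* (0.48) and *Rrm2* (0.49; median 2.93), of which *Cdk1* stood at means of 0.20, 63.3, 42.5, 59.1 and 32.9 FPKM in naïve, TCR activated, PI3Kdi, IL-2 maintained and deprived CTL. *Xcl1* had no close partner, with *Batf3* (1.82), *Ttc39c* (1.83) and *Wnt10b* (1.86) first. *Ccl9* lay closest to the serpin genes *Serpinb9* (0.31), *Serpinb6b* (0.46) and *Serpine2* (0.47), and *Serpinb9*, an inhibitor of granzyme B, stood at 9.93, 106 and 8.17 FPKM in naïve, TCR activated and PI3Kdi cells. With *Ccl9* itself at 0 FPKM in naïve and 0 to 0.03 FPKM in PI3Kdi libraries, its pattern depends on the pseudocount. The naïve part of the *Ccl3* and *Xcl1* patterns depends on it as well. *Ccl5* lay closest to *Sepp1* (0.44), *Rgs2* (0.53) and *Fam46c* (0.55). *Cxcr3* lay closest to *Ikzf3* (0.26), which encodes the lymphoid factor Aiolos, *Samhd1* (0.27) and *Arhgap31* (0.32), and *Ikzf3* stood at 46.4, 35.0, 89.5, 8.47 and 37.9 FPKM in naïve, TCR activated, PI3Kdi, IL-2 maintained and deprived CTL. For *Ccr2* the nearest were 2310010J17Rik (0.28), *Sord* (0.30) and *Ggt7* (0.30; median 0.77), with its own pattern in the first table resting on values under 0.60 FPKM.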

How the data were processed

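Messenger RNA was sequenced in 15 libraries of mouse P14 CD8+ T cells in 5 groups of 3. Per the submitters' processing notes and the study's methods, the authors aligned reads with STAR 2.5.2b to mm10, counted them over RefSeq genes with Subread 1.5.1, removed genes with low counts, normalised with TMM in edgeR and deposited FPKM values with 2 decimals. For the CTL table the same filter and normalisation were assumed. Blanks in the first table (1039) were read as 0. Depth was estimated roughly, after the values were seen, from the steps between low FPKM values and GENCODE exon lengths.

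Each table was fitted apart in limma 3.58.1 (R 4.3.3) on log2(FPKM + 0.1), with an intensity trend, all its libraries sharing 1 estimate of spread. The fit was also run on simulated data with known log2 changes of 2 or 3, for PI3Kdi against naïve and for CTL. Changes near the 2-fold limit were not simulated. Alternatives were pseudocounts of 1 and 0.01, median scaling, genes of mean FPKM 1 or more, no trend, the replicate number as a block, the compared groups alone, each replicate left out and fold limits of 1.5 or none.

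Same-numbered replicates of the first table are the same pool of mice; deviations of TCR and PI3Kdi libraries of 1 number correlated at r from 0.20 to 0.51, those of naïve and activated libraries at -0.18 to 0.23. In CTL same-numbered pairs correlated at 0.12 to 0.26 and other pairs at -0.20 to 0.09. Naïve and TCR libraries of the same pool correlated no better than other pairs (-0.31 to 0.38), so these values cannot establish pairs. Taking the CTL numbers as pairs was an assumption. Members, lists and motifs were chosen with earlier results of these data known. P-values were adjusted over all genes of a table, and no test crossed the tables, which were normalised apart. Named were the 7 members, listed genes called with a mean FPKM of at least 1 in a group (up to the 4 largest in each direction), known receptors and ligands of the members (some listed genes are not reported here), and the 3 genes nearest each member in pattern. Of the 7 members, 5 matched the promoter table (*Ccl4* and *Ccl5* did not).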

Additional observations from a re-analysis of the deposited data

How the results depend on the processing

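Of the alternatives run, 334 values stayed on the same side of the threshold or within 1.5 times the count. The others were classed as moved (8), reversed (2), stronger (3) or weaker (5). Calls of members changed for *Ccl4*, *Ccr2* and *Cxcr3*. Leaving out replicates moved *Ccl4* in PI3Kdi against TCR from -1.61 to -0.91, *Ccr2* from 0.60 to 1.25 in that comparison and from 0.99 to 1.95 against naïve, *Cxcr3* in PI3Kdi against naïve from 0.88 to 1.09, and *Ccl5* there from -0.26 to 0.38 (reversed without replicate 1, -0.03, and without replicate 3, -0.26, always uncalled), all as log2 differences. With a pseudocount of 1, *Ccr2* in PI3Kdi against naïve was 0.38 and no longer called; with median scaling *Cxcr3* there was 1.06 and called. That scaling shifted the median log2 difference of all genes from 0.01 to 0.12 in TCR against naïve. Counts over all genes in PI3Kdi against TCR were 579 as reported, 311 with a pseudocount of 1, 323 to 574 with a replicate left out (323 without replicate 2), 1120 with a fold limit of 1.5 and 1975 with none. With no fold limit 9096 genes passed in TCR against naïve (5489 with it), 8906 in PI3Kdi against naïve (5063) and 8056 in CTL (3166; 5657 at 1.5). The cause of these changes was not tested, beyond the wider fold limits and the fewer libraries. A mean FPKM of at least 1 removes *Ccl9* and *Ccr2* from the first table, so that this setting gives no value for them. With the replicate block no call of a member changed (adjusted p = 0.017 for *Ccl4* in PI3Kdi against TCR). The estimated depth leaves *Ccl9*, *Xcl1* and *Ccl3* in naïve libraries at a few reads or none, so that their differences from naïve cells depend on the pseudocount, as do those of *Xcl1* and *Ccl3* in CTL.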
